A study of Mus musculus with 8 samples.

Results

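The integrins and laminins are 37 genes, 26 integrin subunits and 11 laminin chains, chosen by symbol alone from the 56953 gene identifiers counted in whole liver. All 37 were found once each in the annotation. 33 of them, 22 integrin subunits and all 11 laminin chains, had enough counts to be tested, among 15669 genes tested in all. The livers came from adult male mice kept for 8 weeks on CDHFD, a high-fat diet without choline that leads to steatosis, inflammation and scarring. The 4 Control mice carried the WT genotype. The 4 HSC-PCK1-KO mice lacked PCK1, a cytosolic enzyme of gluconeogenesis, in hepatic stellate cells, which store retinoids and turn into collagen-producing myofibroblasts upon injury. The sources used here give neither the driver of the deletion nor an exact age. Both groups shared diet, sex and a single batch label.

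Integrins are receptors in the cell membrane, each built of an alpha and a beta subunit, that tie the cytoskeleton to the matrix or to other cells and signal in both directions. Laminins are cross-shaped proteins of basement membranes, each built of an alpha, a beta and a gamma chain, and several integrins bind them. The healthy liver sinusoid has no continuous basement membrane, and laminin accumulates along it in fibrosis. Integrins with an alpha-v subunit also release active TGF-beta, the main fibrogenic cytokine, from its latent complex.

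The promoters of 4 members that stand out in the levels or ranges below are shown as a description. No result rests on these sequences, and their part in the levels was not tested. Lamb1 and Lamb2 encode beta chains that can replace each other in laminins, and the groups did not overlap in Lamb1 while they did in Lamb2. Among the 33 tested genes, Itgb1 had the highest level per kb and the narrowest range over the libraries, and Itgax the widest range. Each sequence is the 250 bases before the transcription start in RefSeq on GRCm38.p6, an earlier build than that of the counts, all on the plus strand. Their positions are chr12:31265043-31265292 for Lamb1, chr9:108479612-108479861 for Lamb2, chr8:128685404-128685653 for Itgb1 and chr7:128129300-128129549 for Itgax. Capitals mark matches to motifs described after the sequences.
Lamb1: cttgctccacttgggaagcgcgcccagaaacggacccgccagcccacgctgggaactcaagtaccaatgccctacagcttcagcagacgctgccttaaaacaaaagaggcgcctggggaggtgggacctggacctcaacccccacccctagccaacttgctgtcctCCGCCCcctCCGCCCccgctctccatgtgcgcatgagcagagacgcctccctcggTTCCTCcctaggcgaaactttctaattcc
Lamb2: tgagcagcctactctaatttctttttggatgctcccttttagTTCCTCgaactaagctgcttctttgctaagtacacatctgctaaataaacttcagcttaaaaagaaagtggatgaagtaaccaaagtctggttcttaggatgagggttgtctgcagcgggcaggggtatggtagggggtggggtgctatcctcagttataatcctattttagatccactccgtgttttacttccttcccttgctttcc
Itgb1: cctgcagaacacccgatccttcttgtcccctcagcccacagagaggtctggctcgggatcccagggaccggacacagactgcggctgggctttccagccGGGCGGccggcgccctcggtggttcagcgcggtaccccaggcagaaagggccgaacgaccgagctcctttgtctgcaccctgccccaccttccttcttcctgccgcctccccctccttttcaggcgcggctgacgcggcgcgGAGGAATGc
Itgax: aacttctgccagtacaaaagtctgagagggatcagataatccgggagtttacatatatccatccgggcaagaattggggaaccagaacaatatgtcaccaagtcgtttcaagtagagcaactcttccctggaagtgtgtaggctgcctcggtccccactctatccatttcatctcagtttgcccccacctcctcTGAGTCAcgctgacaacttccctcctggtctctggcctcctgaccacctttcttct

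Of the 37 members, 23 had an entry in the RefSeq promoter table. Motifs were searched on both strands. They were the GC box (GGGCGG), which basal activators such as SP1 bind, and the TATA box (TATAAA) of core promoters. Also searched were the AP-1 site (TGANTCA) of stress-responsive factors, the E-box (CACGTG) of helix-loop-helix factors, the TEAD site (CATTCC) of the Hippo pathway, the PU-box (GAGGAA) of myeloid ETS factors and, by name alone, the SMAD palindrome. The Lamb1 promoter held 2 GC boxes, which 32.7% of 32851 promoters of the same length hold at least once, and 1 PU-box, held by 23.3%. Lamb2 had 1 PU-box and no GC box in this window, and a G and C content of 43.6% against 62.0% in Lamb1. The Itgb1 promoter, with 68.0% G and C, had 1 GC box, and a PU-box that overlapped a TEAD motif, a motif held by 12.6% of promoters. Itgax, at 50% G and C, had 1 AP-1 motif, held by 6.75%. None of the 4 windows held a TATA box, an E-box or the SMAD palindrome, which 12.4%, 6.02% and 0.167% of promoters hold. The matches describe letters, not bound sites.

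Levels are CPM, counts relative to the library total after TMM scaling, and can be set beside each other between genes only per kb of exon. The plot of levels per kb shows a range from 40.0 CPM per kb for Itgb1, the beta subunit shared by most matrix receptors, to 0.00568 for Itgad. Itgb5, a partner of the alpha-v subunit, followed at 20.9 ± 2.16 CPM per kb (SD, n = 8 libraries), and Itga5, the fibronectin receptor subunit, at 6.29 ± 0.78. Itgb2, the beta subunit of white blood cells, stood at 3.87 ± 1.41, Itgal at 2.43 ± 0.79, Itga9 at 2.38 ± 0.39 and Itgav at 2.05 ± 0.18. Lamc1, the gamma chain common to most laminins, led the laminins at 2.03 ± 0.32 and was followed by Lamb3 at 1.34 ± 0.37. In this order, only Itgb1 and Itgb5 stood apart from the next gene, in that the ranges over the 8 libraries did not overlap in 2 of 36 neighbouring pairs. With the length of the longest transcript in place of all exons, a gene moved by at most 4 places.

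**Figure D1:**
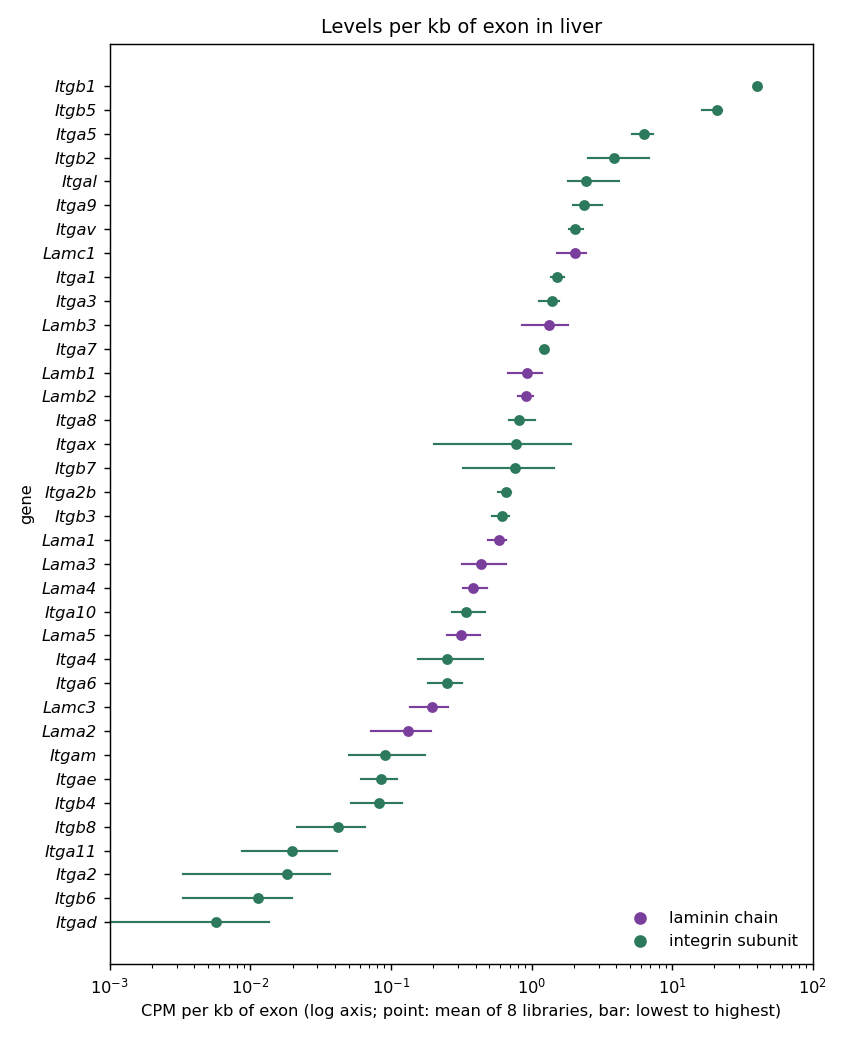
Mean level of each gene shown in CPM per kb of exon on a log axis, with a bar from the lowest to the highest of the 8 libraries. Itgb1 at 40.0 and Itgb5 at 20.9 CPM per kb stood clear of the next gene, and all other neighbours overlapped.

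Whole-library facts bear on all results. Totals ran from 44695439 to 49477255 counts, and hepatocyte transcripts such as Alb were abundant in every library, with a summed level of 82814 to 104758 CPM for 6 markers. Pck1 stood at 1000, 2010, 551 and 1030 CPM in the 4 Control libraries and at 339, 795, 593 and 948 CPM in the 4 HSC-PCK1-KO libraries. The groups overlapped, and since hepatocytes express Pck1 strongly it cannot serve as a check of the stellate cell deletion. In whole liver, fewer cells of a type and less RNA per cell cannot be told apart.

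When the genotypes were compared by edgeR's quasi-likelihood test at an adjusted p of 0.05, 0 of the 33 integrin and laminin genes were called, and 0% of all 15669 genes (370 genes at an unadjusted p under 0.05, and 6 calls by DESeq2, none of them a member). At an unadjusted p under 0.05 there were 2 lower members, Lamb1 and Lama1, where 1.34% of all genes were lower, and 0 higher members, where 1.02% of all genes were higher. DESeq2 and limma-voom with sample weights also called 0 members, each with the same 2 genes at an unadjusted p under 0.05. Every HSC-PCK1-KO library lay below every Control library in 2 of the 33 genes, Lamb1 and Lama4, where 0.811% of all genes did so. In none did every HSC-PCK1-KO library lie above, where 0.721% of all genes did. A negative log2 fold change was found in 24 of 33 members and in 51.8% of all genes, with a median of -0.063 against -0.0055 over all genes. Without Control replicate 4 the count was 17 of 33 and the median -0.0012, and without Control replicate 3 they were 28 of 33 and -0.14. The 95% interval excluded a 2-fold change in either direction for 28 of 33, against 86.7% of all genes, and among those where it did not were Itgam, Itgax, Itgb7 and Itgb8. For 17 of 33 it excluded a 1.5-fold change in either direction.

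**Figure D2:**
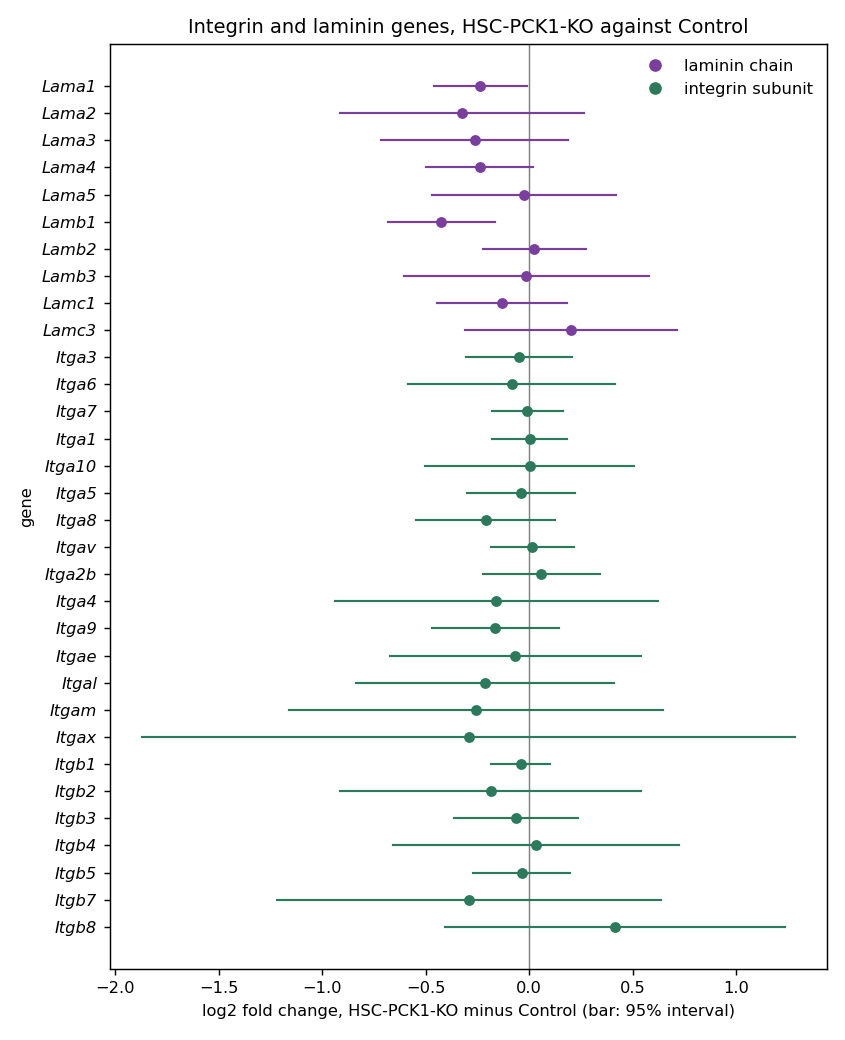
Log2 fold change of the tested genes shown, HSC-PCK1-KO minus Control, with 95% intervals from edgeR's fit. Lamb1 at -0.42 and Lama1 at -0.24 were the only genes here whose unadjusted interval left out 0, and the bars of Itgb1, Itga7 and Itga1 were among the shortest.

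Among the laminins, the most negative log2 fold change was that of Lamb1, the beta chain of the widespread laminins. It had 11.8, 9.17, 9.74 and 11.7 CPM in Control mice and 6.70, 8.25, 8.60 and 8.07 CPM in HSC-PCK1-KO livers. Every HSC-PCK1-KO library was thus below every Control library. The means were 10.6 ± 1.35 and 7.90 ± 0.83 CPM (SD, n = 4), and the log2 fold change was -0.42 (SE 0.12) with a 95% interval from -0.68 to -0.16. The adjusted p was 0.9998 in edgeR's test and ranged from 0.605, with DESeq2, to 0.99998 over the alternatives. The unadjusted p was 0.00447, and it stayed under 0.05 in all 16 settings, those that left out each library included, where the log2 fold change ran from -0.49 to -0.36.

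Lama4, the alpha chain of vessel basement membranes, also showed no overlap. It had 4.73, 4.88, 4.71 and 5.80 CPM in Control mice and 4.42, 3.92, 4.57 and 4.15 CPM in HSC-PCK1-KO livers. Control replicate 4 was high, yet the other 3 Control libraries still lay above all HSC-PCK1-KO libraries. The means were 5.03 ± 0.52 and 4.27 ± 0.29 CPM (SD, n = 4), and the log2 fold change was -0.24 (SE 0.12) with an adjusted p of 0.9998 in edgeR's test. Lama1, the alpha chain of early embryonic laminin, had 6.23, 6.34, 5.73 and 6.22 CPM in Control mice and 5.05, 4.75, 5.24 and 5.79 CPM in HSC-PCK1-KO livers. The groups overlapped only through Control replicate 3 and HSC-PCK1-KO replicate 4, and the log2 fold change was -0.24 (SE 0.10). Its unadjusted p of 0.043 was under 0.05 in 7 of 16 settings.

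Lama2, the chain of muscle and stromal basement membranes, had 2.82, 1.65, 1.92 and 3.14 CPM in Control mice and 1.18, 2.23, 2.35 and 1.85 CPM in HSC-PCK1-KO livers. Lama3, an epithelial chain, had 3.45, 7.05, 5.62 and 4.31 CPM in Control mice and 4.78, 3.98, 4.38 and 3.84 CPM in HSC-PCK1-KO livers. Both genes overlapped between groups, with log2 fold changes of -0.33 (SE 0.27) and -0.26 (SE 0.20). That of Lama2 was -0.16 without HSC-PCK1-KO replicate 1, and that of Lama3 was -0.070 without Control replicate 2 and -0.41 without Control replicate 1. Lamc1 had 20.2, 14.5, 15.4 and 20.1 CPM in Control mice and 12.5, 17.1, 17.1 and 17.5 CPM in HSC-PCK1-KO livers, so that the single low value was HSC-PCK1-KO replicate 1. Its log2 fold change was -0.13 with all libraries and -0.033 without that one. The other beta chains overlapped between groups, Lamb2 at 5.51 ± 0.54 and 5.60 ± 0.44 CPM and Lamb3 at 8.87 ± 3.30 and 8.80 ± 1.71 CPM (SD, n = 4). Lama5, the alpha chain of mature epithelial and vessel basement membranes, stood at 3.62 ± 0.96 and 3.56 ± 0.59 CPM. Lamc3, a gamma chain found outside most basement membranes, had a log2 fold change of 0.20 (SE 0.23), or 0.087 without HSC-PCK1-KO replicate 3, and overlapped. In all, the log2 fold change was below 0 in 8 of 11 laminin chains, their median was -0.13, and the median was -0.058 without Control replicate 1 and -0.059 without Control replicate 4.

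**Figure D3:**
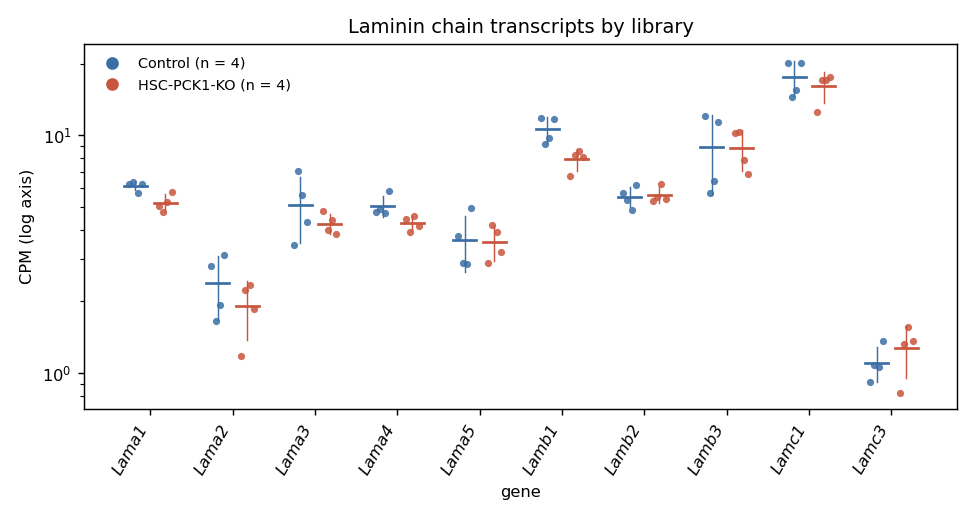
CPM of laminin chains in each library on a log axis, with the mean (horizontal bar) and SD (vertical bar) of 4 libraries per group. Lamb1 and Lama4 are the chains whose groups do not overlap, with Lamb1 means of 10.6 and 7.90 CPM.

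Stellate and mesothelial markers are given first. Both cell types make basement membrane, and their lists had the smallest exact permutation p of the 14 compared. The summed level of 8 stellate cell markers was 277 to 296 CPM in Control mice and 227 to 275 CPM in HSC-PCK1-KO livers, with no overlap (exact two-sided permutation p = 0.0286, the smallest that 4 against 4 can give, and adjusted p = 0.4 over 14 lists). Of the 8, 7 had a negative log2 fold change and none was at 0 counts. Without HSC-PCK1-KO replicate 1, the lowest, the others had 265 to 275 CPM and still lay below every Control library. Ecm1, Reln and Colec11 made up most of each sum. Of the 8 markers, only Colec11 did not overlap by itself, at 41 to 44.9 CPM in Control and 37.9 to 40.1 CPM in HSC-PCK1-KO livers. Lrat had 15.8 to 27.7 and 16.9 to 22.9 CPM, and Pdgfrb 10.4 to 16.8 and 7.17 to 13.7 CPM. The summed level of 6 mesothelial markers, of the cells that cover the liver, was 5.07 to 12.8 CPM in Control mice and 2.50 to 5.32 CPM in HSC-PCK1-KO livers (exact permutation p = 0.0571, adjusted p = 0.4), all 6 with a negative log2 fold change. Sums of 6 sinusoidal endothelial markers overlapped widely, at 199 to 233 and 182 to 241 CPM. Those of vascular endothelium overlapped too, at 65.8 to 92.2 and 71.5 to 84.1 CPM (exact permutation p = 0.971). So did those of portal fibroblasts, at 9.76 to 19.4 and 10.9 to 15.5 CPM (exact permutation p = 0.686). Cholangiocyte sums were 6.70 to 8.91 and 5.07 to 8.84 CPM (exact permutation p = 0.571). The part of these cells in the Lamb1, Lama4 and Lama1 values was not tested.

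Chains of one laminin are made in the same cell, so their levels were compared across libraries. Lama2 and Lamc1 had a Pearson's r of 0.953 over the 8 libraries (exact permutation p = 0.000769, adjusted p = 0.0261 over 34 subunit pairs, and Spearman's rho = 0.833, exact permutation p = 0.0154, adjusted p = 0.174). Without the 2 libraries farthest from the median of Lama2, r was 0.864. This was the sole pair of 34 past the threshold by Pearson's r, and 0 passed by rho. Its r stayed between 0.903 and 0.989 when each library was left out, but the pair passed only without HSC-PCK1-KO replicate 4 and in none of the other 7 sets of 7 libraries. Lamb1 and Lamc1 had an r of 0.781 (exact permutation p = 0.0219, adjusted p = 0.0999, rho = 0.571 with exact permutation p = 0.151), and 0.403 without the 2 farthest libraries. Measured as deviations from the group means, the r of Lamb1 and Lamc1 was 0.979. Lama3 and Lamb3, chains of the epithelial laminin, ran in opposite directions with an r of -0.715 (exact permutation p = 0.0407, adjusted p = 0.131, rho = -0.714 with exact permutation p = 0.0576). That relation rested on Control replicates 2 and 3, without which r was -0.124.

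The deviations of Lamb1 and Lamc1 from their group means ran together, so Lamb1 counts were divided by Lamc1 counts in the same library. Among HSC-PCK1-KO livers the relation rested on replicate 1, the lowest in both genes. Replicates 2, 3 and 4 had 17.1, 17.1 and 17.5 CPM of Lamc1 and 8.25, 8.60 and 8.07 CPM of Lamb1. The ratio needs no library scaling and was chosen after the values were seen. The ratio was 0.583, 0.633, 0.631 and 0.584 in Control and 0.536, 0.483, 0.504 and 0.461 in HSC-PCK1-KO livers. The groups were apart, with means of 0.607 ± 0.028 and 0.496 ± 0.032 (SD, n = 4) and a log2 difference of -0.29. The exact two-sided permutation p was 0.0286, the smallest possible, and 0.286 after adjustment over the 10 chains compared with Lamc1 in this way. Lama4, by contrast, had ratios from 0.234 to 0.337 in Control and 0.230 to 0.354 in HSC-PCK1-KO livers, which overlapped (exact permutation p = 0.543). Lamb2 had mean ratios of 0.318 ± 0.037 and 0.355 ± 0.052 (exact permutation p = 0.286).

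**Figure D4:**
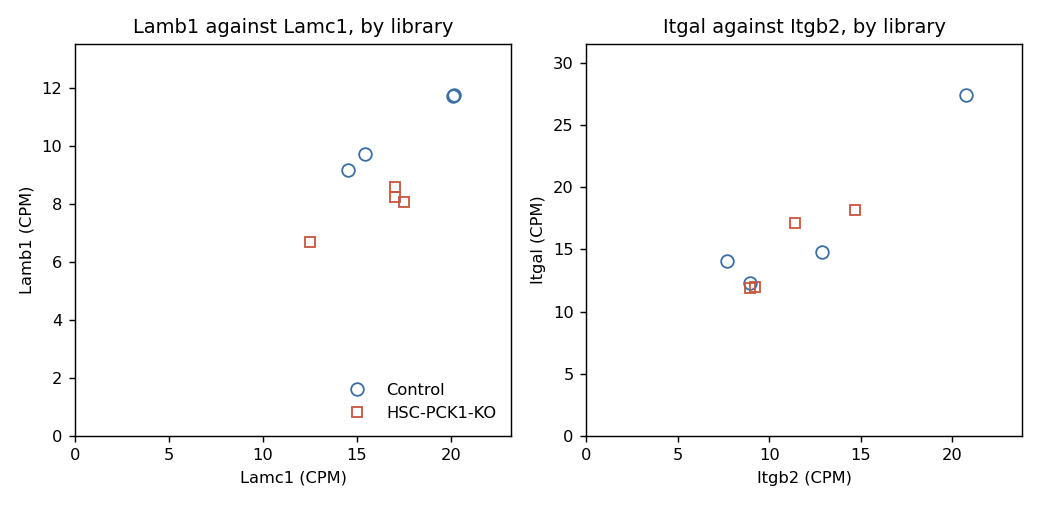
Left, Lamb1 against Lamc1, and right, Itgal against Itgb2, both in CPM with 1 symbol per library (Control circles, HSC-PCK1-KO squares). On the left, Control replicates 1 and 4 coincide at the top. HSC-PCK1-KO replicates 2 to 4 lie lower on Lamb1 than Control replicates 2 and 3, though higher on Lamc1. Control replicate 4 at 27.4 CPM of Itgal is alone on the right.

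The laminin-binding alpha subunits, whose ligands are these chains, differed between groups by less than the spread between libraries. Itga3, of epithelial laminin receptors, had 8.26, 8.09, 7.02 and 8.999 CPM in Control mice and 6.48, 8.37, 8.35 and 8.07 CPM in HSC-PCK1-KO livers. Itga6, found on epithelial and endothelial cells, had 2.84, 1.65, 1.92 and 2.81 CPM in Control mice and 1.85, 2.88, 1.89 and 2.09 CPM in HSC-PCK1-KO livers. Both overlapped, with log2 fold changes of -0.050 (SE 0.12) and -0.085 (SE 0.23). Itga7, best known as a muscle laminin receptor, stood at 10.03 ± 0.43 and 9.97 ± 0.47 CPM (SD, n = 4), and its highest library exceeded its lowest by only 1.149-fold.

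For the collagen receptors, Itga1, the collagen receptor subunit of stromal and endothelial cells, had 28.5, 28.9, 27.4 and 27.9 CPM in Control mice and 29.6, 25.4, 25.9 and 31.8 CPM in HSC-PCK1-KO livers. The means differed by less than the spread, with a log2 fold change of 0.0012 and a 95% interval from -0.18 to 0.18. Itga10, a chondrocyte-type collagen receptor, had 1.40, 2.29, 1.86 and 1.57 CPM in Control mice and 1.43, 1.85, 2.41 and 1.42 CPM in HSC-PCK1-KO livers. Of its 100-base windows 27.6% are shared with the overlapping gene model Gm42957, so its level is uncertain. Itga11, a collagen receptor of myofibroblasts, was under the count filter, with 2 to 11 counts in Control and 2 to 5 in HSC-PCK1-KO libraries. Itga2, of platelets and epithelia, was also under it, with 1 to 13 and 2 to 8 counts.

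RGD-binding alpha subunits recognise a short motif in fibronectin, vitronectin and the latent TGF-beta complex. Itga5 had 28.8, 35.9, 26.5 and 34.5 CPM in Control mice and 25.6, 30.5, 34.4 and 31.9 CPM in HSC-PCK1-KO livers. Itga8, a receptor of mesenchymal cells including stellate cells, had 7.29, 5.31, 5.45 and 7.79 CPM in Control mice and 5.38, 5.13, 5.32 and 6.504 CPM in HSC-PCK1-KO livers. Itga8 was highest in Control replicates 1 and 4, and the groups overlapped at a log2 fold change of -0.21 (SE 0.15), or -0.11 without Control replicate 4, with an adjusted p of 0.9998 in edgeR's test. Itgav, the alpha subunit that releases TGF-beta, stood at 21.9 ± 2.26 and 22.1 ± 1.82 CPM (SD, n = 4), with a 95% interval of the log2 fold change from -0.19 to 0.22. Itga2b, of platelets and megakaryocytes, stood at 3.53 ± 0.29 and 3.68 ± 0.36 CPM. Pf4 and Ppbp were the platelet markers that passed the filter, and the 5 markers summed to at most 2.09 CPM, with 1 of them at 0 counts in all libraries.

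Of the beta partners of these subunits, Itgb1 had the smallest spread of any tested member. It had 171, 162, 160 and 169 CPM in Control mice and 158, 163, 157 and 166 CPM in HSC-PCK1-KO livers. The highest library exceeded the lowest by 1.09-fold, and the 95% interval of its log2 fold change of -0.041 ran from -0.18 to 0.10. Itgb5 stood at 75.2 ± 5.41 and 73.3 ± 10.3 CPM, where HSC-PCK1-KO replicate 4 had 57.9 CPM and the other 7 libraries 68.3 to 80.7 CPM. Itgb3, of platelets and vessels, stood at 3.73 ± 0.46 and 3.57 ± 0.33 CPM. Itgb4, of epithelial anchoring junctions, stood at 0.575 ± 0.18 and 0.587 ± 0.20 CPM. Itgb8, a TGF-beta activating partner of the alpha-v subunit, had 0.345, 0.236, 0.296 and 0.708 CPM in Control mice and 0.402, 0.724, 0.582 and 0.427 CPM in HSC-PCK1-KO livers. The log2 fold change of Itgb8 was 0.41 (SE 0.37), and without Control replicate 4, the high one of its group, it was 0.86 with an unadjusted p under 0.05 that did not pass adjustment. Itgb6, the epithelial TGF-beta activator, was below the filter, with 1 to 4 counts in Control and 3 to 7 in HSC-PCK1-KO libraries.

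Leukocyte integrins had wide spreads between libraries of one genotype. Itgal, the alpha subunit of LFA-1 on lymphocytes and other white blood cells, had 14.8, 14.03, 12.3 and 27.4 CPM in Control mice and 17.1, 11.9, 11.9 and 18.2 CPM in HSC-PCK1-KO livers. Itgax, the CD11c subunit of dendritic cells and lipid-laden macrophages, had 3.31, 0.967, 2.85 and 9.17 CPM in Control mice and 1.07, 4.59, 3.57 and 4.11 CPM in HSC-PCK1-KO livers. The libraries of Itgax spanned 9.48-fold, the widest range of the 33, against a median of 1.72-fold. Control replicate 4 was the highest in both genes, and the groups overlapped. Itgb2, their beta partner, stood at 12.6 ± 5.87 and 11.1 ± 2.66 CPM (SD, n = 4), also with its highest value, 20.7 CPM, in Control replicate 4.

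Itgam, the CD11b subunit of monocytes and neutrophils, stood at 0.496 ± 0.29 and 0.421 ± 0.11 CPM, a low level that is uncertain because 64.3% of its 100-base windows are shared with the overlapping gene model Gm49368. The sources used here do not say how reads in shared exons were counted, and Gm49368 itself had at most 0.0201 CPM. Itgad, a macrophage subunit, had 0 to 3 counts in any library. Itgae, which holds T cells in epithelium, stood at 0.400 ± 0.075 and 0.380 ± 0.094 CPM. The log2 fold change was below 0 in all 4 tested leukocyte alpha subunits, their median was -0.24, and without Control replicate 4 the median was 0.14. Without that library the log2 fold change of Itgal was 0.11 in place of -0.22, that of Itgax 0.49 in place of -0.29 and that of Itgb2 0.17 in place of -0.19.

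Partner subunits of white blood cells were compared across libraries as the laminin chains were. Itgal and Itgb2 had a Pearson's r of 0.907 over the 8 libraries (exact permutation p = 0.00372, adjusted p = 0.0567, and rho = 0.762 with exact permutation p = 0.0368), and 0.587 without Control replicate 4 and HSC-PCK1-KO replicate 4. Itgam and Itgb2 had an r of 0.872 (exact permutation p = 0.00578, adjusted p = 0.0567, and rho = 0.881 with exact permutation p = 0.00724), and 0.767 without the 2 farthest libraries. Itga8 and Itgb1 had an r of 0.869 (exact permutation p = 0.00667, adjusted p = 0.0567, and rho = 0.595 with exact permutation p = 0.132), and 0.606 without Control replicates 1 and 4. None of the 20 integrin pairs passed after adjustment, and r was positive in 18 of them. Most of these pairs share Itgb1, Itgav or Itgb2, and the share of positive r among other gene pairs was not measured.

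Itgb7, the gut-homing beta subunit of lymphocytes, had 2.31, 2.17, 2.13 and 2.70 CPM in Control mice and 1.34, 0.905, 1.37 and 4.00 CPM in HSC-PCK1-KO livers. HSC-PCK1-KO replicates 1 to 3 lay below every Control library and replicate 4 above them all. The log2 fold change of Itgb7 was -0.29 (SE 0.41) with all libraries and -0.95 without HSC-PCK1-KO replicate 4, where the unadjusted p was under 0.05 but the adjusted one was not. Itga4, the partner of Itgb7 and of Itgb1 on lymphocytes and monocytes, had 3.73, 2.19, 2.49 and 6.30 CPM in Control mice and 2.81, 2.67, 2.83 and 4.90 CPM in HSC-PCK1-KO livers. It was highest in replicate 4 of both groups, numbers that do not mark a shared animal. Of its exons 8.04% lie opposite Cerkl, and the strand setting of the counting is not known here. Itga9, a receptor of stromal, endothelial and myeloid cells, had 18.9, 18.5, 15.7 and 24.3 CPM in Control mice and 16.2, 15.1, 17.2 and 20.5 CPM in HSC-PCK1-KO livers, with a log2 fold change of -0.16 (SE 0.14), which was -0.033 without Control replicate 4. With that library kept and HSC-PCK1-KO replicate 4 left out it was -0.26.

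Markers of white blood cells differed between libraries as well. Control replicate 4 had 56.8 CPM over 6 recruited macrophage markers, where the other 7 libraries had 15.7 to 48.2, and 11.1 CPM over 5 neutrophil markers, where the others had 2.97 to 6.77. HSC-PCK1-KO replicate 4 had 7.17 CPM over 7 T and NK cell markers, where the others had 3.26 to 5.90. Of this sum Cd8a was 1.79 CPM, against at most 0.594 CPM in any other library. Cd3e, Cd3g and Nkg7 were also highest there, while Cd4, Klrb1c and Ncr1 were not. Of these lists, no marker was at 0 counts in all libraries, and Ly6g, the defining neutrophil marker, was under 0.1 CPM. Recruited macrophage sums were 15.7 to 56.8 CPM in Control mice and 26.7 to 48.2 CPM in HSC-PCK1-KO livers, and those of T and NK cells 3.37 to 5.90 and 3.26 to 7.17 CPM. B cell sums, from 5 markers, were 2.38 to 5.03 and 3.28 to 7.44 CPM (exact permutation p = 0.343). The highest was HSC-PCK1-KO replicate 1, where Itgb7 had 1.34 CPM. Dendritic cell sums, from 5 markers, were 8.96 to 13.3 and 8.82 to 12.6 CPM, highest in Control replicate 4. Of the 6 recruited macrophage markers, 5 had a negative log2 fold change. The other, Cd9, had 0.46 and was the largest part of the sum in every library. Cd9 alone had 12 to 30.1 CPM in Control mice and 22.5 to 33.5 CPM in HSC-PCK1-KO livers. Kupffer cell sums, from 5 markers of resident macrophages, ran from 265 to 417 CPM in Control livers and from 223 to 429 CPM in HSC-PCK1-KO livers. The highest was HSC-PCK1-KO replicate 1 and the lowest HSC-PCK1-KO replicate 2. The part of these cells in the integrin values was not tested.

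**Figure D5:**
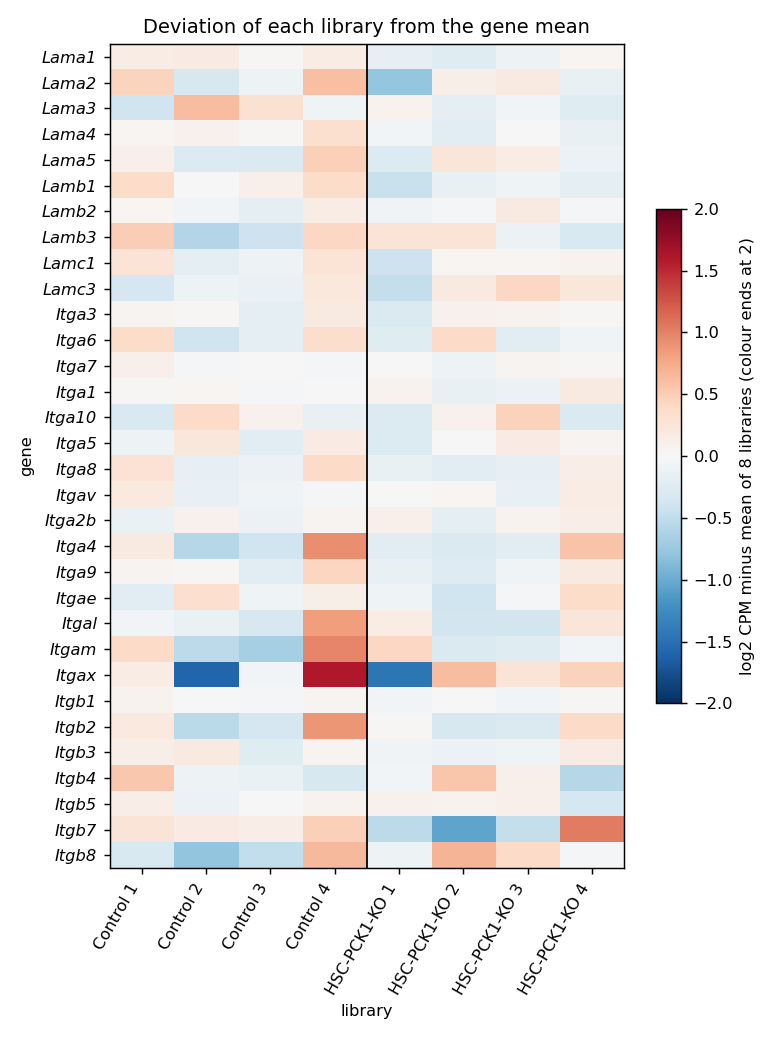
Log2 CPM of the tested genes shown in each library minus the mean of the 8 libraries, red above and blue below, with Control left of the line. Itgax, Itgal, Itgb2 and Itga4 are highest in Control replicate 4, and Itgb7 is high in HSC-PCK1-KO replicate 4, at 4.00 CPM, and low in the other HSC-PCK1-KO libraries.

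Partners of the members in the basement membrane, among matrix ligands and inside the cell were read from lists fixed with earlier results known. Of 28 basement membrane partners, 26 were tested, 0 passed in edgeR's test (2 lower at an unadjusted p under 0.05, where 1.34% of all genes were), and 23 were on the lower side in HSC-PCK1-KO livers, as were 51.8% of all genes, the median log2 fold change being -0.18 against -0.0055 over all genes. The 4 with the smallest p were Col4a2, a chain of the collagen network that laminin lies on, with means of 29.4 ± 5.88 and 22.2 ± 1.97 CPM (Control, then HSC-PCK1-KO), then Ntn1, Fras1 and Smoc2, with log2 fold changes of -0.16, -0.54 and -0.60. Col4a2 overlapped between groups, and its log2 fold change was -0.41 with all libraries and -0.27 without Control replicate 4. Nid1, which links laminin to collagen IV and was named after its value was seen, had a log2 fold change of -0.11 (SE 0.29).

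Of 38 other integrin ligands and counter-receptors, 35 were tested, 0 passed (2 lower at an unadjusted p under 0.05, against 1.34% of all genes), and 27 were on the lower side, against 51.8% of all genes, the median log2 fold change being -0.19. The groups did not overlap, with HSC-PCK1-KO lower, in 2 of the 35, Lrrc32 and Fn1, against 0.811% of all genes. The stellate marker sums given above did not overlap either, at 277 CPM or more in Control and 275 CPM or less in HSC-PCK1-KO livers. Their adjusted p was 0.4 in the exact permutation test, and of the 8 markers only Colec11 did not overlap by itself. The part of stellate or other cells in the values of both lists was not tested. Lrrc32, which holds latent TGF-beta on the cell surface, stood at 12.1 ± 1.68 and 9.54 ± 0.37 CPM (Control, then HSC-PCK1-KO), without overlap. Fn1, fibronectin, the ligand of Itga5, stood at 1752 ± 185 and 1518 ± 70.7 CPM, also without overlap, a log2 fold change of -0.21 (SE 0.099). Col6a2 and Tgfb3 had log2 fold changes of -0.71 and -0.37. Of 45 adhesion adaptors and kinases, which link integrin tails to actin, 44 were tested, 0 passed (2 lower at an unadjusted p under 0.05, against 1.34% of all genes), and 22 were negative and 22 positive, with a median of -0.00081. The 4 with the smallest p were Dst, Actn1, Actn4 and Tns1, linkers and crosslinkers of the cytoskeleton, with log2 fold changes of -0.24, -0.19, -0.16 and -0.14.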

How the data were processed

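Whole liver mRNA of 4 Control and 4 HSC-PCK1-KO mice was captured with oligo(dT) and sequenced as strand-specific paired reads of 100 bases, per the labels' protocols. The authors deposited raw counts per gene, without normalization. The build was GRCm39 and R 4.3.2 was used, per the submitters' processing notes. Aligner, counting tool, annotation, strand setting and treatment of multiply mapped reads: none is given in the sources used here. Symbols were matched by identifier to GENCODE M21 (GRCm38), which named 52029 of 56953 identifiers and gave exon lengths. The design text calls the samples biological replicates, and p-values set a difference against the spread between them.

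Counts were analysed in R 4.3.3 with edgeR 4.0.16 (filterByExpr, TMM factors, robust quasi-likelihood F-test, genotype as the only term), with Benjamini-Hochberg adjustment over 15669 genes and a threshold of 0.05. The median SE of a member's log2 fold change was 0.20. Marker sums and ratios to Lamc1 were compared between groups with exact two-sided permutation tests. Subunit pairs were correlated on log2 CPM with a prior count of 2, and their permutations ran over all 8 libraries without keeping the genotypes apart. The fits were tested on simulated data. Alternatives included RLE and upper quartile factors, other filters, DESeq2 1.42.0, limma 3.58.1, a replicate block and leaving out each library. Results of 1 gene are not reported here. Members and lists were chosen with earlier results of these data known. Members were given by library where they were highest per kb or had the largest fold change of their role group, or were among the 8 smallest p. Itgb7, Itgb8, Itgb2, Itgb5, Itgam, Itga4 and Itgav were singled out after their values were seen.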

Additional observations from a re-analysis of the deposited data

Results flagged for a closer look

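Within groups of 4, a library lay far from the other 3 in 9 of 66 cases. For independent, normally distributed values chance gives about 1 in 20 groups, or 3.3. The 66 cases share the same 8 libraries, so 9 against 3.3 is not a test of an excess. Control replicate 4 was high in Lama4, at 5.80 CPM against 4.71 to 4.88, and in Itgal, at 27.4 CPM against 12.3 to 14.8. Control replicate 1 was high in Itga7, at 10.7 CPM against 9.78 to 9.89. HSC-PCK1-KO replicate 1 was low in Lamc1, at 12.5 CPM against 17.1 to 17.5, and in Itga3, at 6.48 CPM against 8.07 to 8.37. HSC-PCK1-KO replicate 4 accounted for the other 4, with high values of Itga4 (4.90 CPM against 2.67 to 2.83), Itgb3 (4.06 CPM against 3.36 to 3.44) and Itgb7 (4.00 CPM against 0.905 to 1.37) and a low value of Itgb5 (57.9 CPM against 77.9 to 79.1).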

How the results depend on the processing

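The count of members past the threshold was 0 under every alternative run. The count of all genes past it was 6 with DESeq2 and 0 to 1 when each library was left out. The replicate block called 0 genes and 0 members. The labels name no pairing of samples by replicate number. Deviations of same-numbered libraries from their group means had an r of -0.033, -0.33, -0.059 and 0.058, which cannot by itself exclude a pairing. The count of subunit pairs past the threshold, 1 with all libraries, was 0 to 3 when each was left out, a check chosen after seeing the data. No member's log2 fold change passed the threshold, and its sign turned under another scaling, filter or test in 6 of 33 members, all near 0. With limma-voom it was 0.058 for Lama5, 0.067 for Lamb3, -0.028 for Itga1, 0.014 for Itga5 and -0.0018 for Itgav, and with the replicate block 0.039 for Lamb3, -0.0044 for Itga1 and -0.010 for Itga10. Leaving out a library turned the sign in 18 of 33. Their ranges were -0.12 to 0.16 for Lama5, -0.034 to 0.082 for Lamb2, -0.18 to 0.17 for Lamb3, -0.11 to 0.028 for Itga3, -0.25 to 0.030 for Itga6, -0.028 to 0.023 for Itga7, -0.062 to 0.047 for Itga1, -0.18 to 0.14 for Itga10, -0.11 to 0.036 for Itga5, -0.031 to 0.088 for Itgav, -0.41 to 0.23 for Itga4, -0.24 to 0.052 for Itgae, -0.34 to 0.11 for Itgal, -0.47 to 0.18 for Itgam, -0.62 to 0.49 for Itgax, -0.36 to 0.17 for Itgb2, -0.20 to 0.27 for Itgb4 and -0.080 to 0.061 for Itgb5. The cause of these turns was not tested. With the sign kept, values not given above moved by over 1.5 times for, among others, Fn1, to -0.13 without Control replicate 2, for Smoc2, to -0.40 without HSC-PCK1-KO replicate 1, and for Itgb7, to -0.056 without HSC-PCK1-KO replicate 2. Depth limits Itga2, Itga11, Itgad and Itgb6, which had at most 13 counts in any library.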
